A study of Mus musculus with 50 samples.

Results

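The genes described here are the collagen genes outside type IV: every gene whose only symbol in the array annotation has the form Col, number, a, number, with the Col4a genes left out. Of 18193 genes with exactly 1 symbol, 36 met this rule, and they were covered by 70 probe sets, of which the brightest on average was taken for each gene. Levels were read on 50 arrays, 10 for each of 5 cell populations, as log2 of the intensity, and the RNA was polysomal, that is, taken from the ribosome-bound fractions of a sucrose gradient. The filter for testing asked for a level over 6.44, the median of all values, on 10 or more arrays, and 26 of the 36 met it.

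The mp53/Ras cells carried both p53175H, a mutant p53, and RasV12, an activated Ras. The mp53 cells carried p53175H with an empty Neo vector, the Ras cells carried RasV12 with an empty Bleo vector, and the bleo/Neo cells carried both empty vectors. The YAMC cells, young adult mouse colon cells, were the uninfected line from which the other 4 were made by retroviral infection. All 5 populations came from the Immorto-mouse and shared its temperature-sensitive large T antigen, driven by an interferon γ-inducible promoter, and all were kept at 39 °C without interferon γ for 48 h and then without serum (0%) for 24 h. Every population was polyclonal and had been cultured on dishes coated with collagen IV. The labels number 10 replicates a population but do not say whether these were separate cultures, so any p-value given here is set by the scatter of these arrays, which may be technical. The comparisons ask how far the collagen messages on polysomes differ with mutant p53, with activated Ras, with both, and with the empty vectors.

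Collagens are proteins of the extracellular matrix built from 3 chains wound into a triple helix. Fibril-forming collagens (types I, II, III, V, XI, XXIV and XXVII) assemble into banded fibrils, and fibril-associated collagens decorate them. Type VI forms beaded filaments, type VII forms the anchoring fibrils that fasten an epithelium to its stroma, types VIII and X form hexagonal networks, and types XV and XVIII carry long sugar chains and sit near basement membranes. Types XIII, XVII, XXIII and XXV span the cell membrane. In the gut wall most fibrillar collagen is made by mesenchymal cells, while epithelial cells rest on a basement membrane rich in type IV.

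Promoters are printed for 4 genes whose levels differed most clearly in different patterns: Col1a2 and Col8a1, which were very low in bleo/Neo cells, Col3a1, which was not, and Col7a1, which was high with Ras. Each window runs 5′ to 3′ along the gene's own strand from 250 bases before to 50 bases after the start of the gene in RefSeq GRCm38.p6, and capitals mark 4 motifs on either strand. These are CCAAT (the CCAAT box), then TATAAA (the TATA box), then GGGCGG (the GC box) and last TGANTCA (the AP-1 site).
Col1a2, chr6:4505368-4505667, plus strand: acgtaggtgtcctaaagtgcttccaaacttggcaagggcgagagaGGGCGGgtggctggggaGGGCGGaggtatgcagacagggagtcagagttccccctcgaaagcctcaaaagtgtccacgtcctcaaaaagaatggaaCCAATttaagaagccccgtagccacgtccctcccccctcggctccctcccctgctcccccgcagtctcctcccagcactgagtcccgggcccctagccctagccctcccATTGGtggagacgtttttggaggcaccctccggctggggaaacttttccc
Col8a1, chr16:57754688-57754987, minus strand: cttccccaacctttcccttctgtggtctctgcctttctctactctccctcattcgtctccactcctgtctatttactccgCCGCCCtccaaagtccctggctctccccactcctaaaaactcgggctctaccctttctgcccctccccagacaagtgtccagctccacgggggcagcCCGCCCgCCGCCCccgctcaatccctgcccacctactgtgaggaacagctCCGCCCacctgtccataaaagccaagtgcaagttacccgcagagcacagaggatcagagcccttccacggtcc
Col3a1, chr1:45311288-45311587, plus strand: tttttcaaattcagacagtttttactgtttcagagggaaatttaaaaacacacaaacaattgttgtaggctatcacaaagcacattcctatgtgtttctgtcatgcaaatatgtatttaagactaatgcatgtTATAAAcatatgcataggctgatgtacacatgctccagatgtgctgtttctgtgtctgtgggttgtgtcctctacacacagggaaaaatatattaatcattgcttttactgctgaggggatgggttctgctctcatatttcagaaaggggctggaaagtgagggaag
Col7a1, chr9:108953336-108953635, plus strand: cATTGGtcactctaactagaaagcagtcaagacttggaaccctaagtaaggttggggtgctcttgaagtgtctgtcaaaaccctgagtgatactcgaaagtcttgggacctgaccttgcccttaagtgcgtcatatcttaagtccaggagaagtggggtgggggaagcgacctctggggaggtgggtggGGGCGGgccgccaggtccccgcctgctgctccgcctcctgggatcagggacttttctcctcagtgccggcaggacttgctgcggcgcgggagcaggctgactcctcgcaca

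The Col1a2 window was 61.0% G and C with 13 CpG dinucleotides, and it held 1 CCAAT at position -109, 1 reversed CCAAT at position 1 and 2 GC boxes, counting from the start of the gene. The Col8a1 window was 60.3% G and C with 12 CpG dinucleotides and held 4 reversed GC boxes. Col7a1 stood at 58.7% with 12 CpG dinucleotides and held 1 GC box at position -61 and 1 reversed CCAAT at position -249. Col3a1, at 37.7% and 0 CpG dinucleotides, held only TATAAA, at position -117. The median over 32851 promoters of the same length was 52.7% G and C with 7 CpG dinucleotides. Of those promoters, 37.4% held CCAAT, 13.6% TATAAA, 35.7% GGGCGG and 7.81% TGANTCA. A window was given for 28 of the 36 collagen genes, 31 windows in all, of which 10 held CCAAT, 5 TATAAA, 18 GGGCGG and 1 TGANTCA. So the 2 genes that were very low in bleo/Neo cells had GC-rich windows, as did Col7a1, which was not low there. Letters that match a motif are a description and not a binding site.

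The 10 collagen genes that were not tested were Col6a5, Col9a2, Col10a1, Col11a1, Col11a2, Col13a1, Col14a1, Col17a1, Col24a1 and Col26a1. Of these, 9 were under the table median on every array, with Col9a2 the exception, above it on 6 arrays. Their highest population means ran from 3.52 for Col24a1 to 6.34 for Col9a2. They include the cartilage collagens of types X and XI and Col17a1, a hemidesmosome component of stratified epithelia. Of the 26 that were tested, 17 lay above the median on all 50 arrays, and each of the 26 differed in at least 1 of the 9 pairwise comparisons. Since a gene could pass through the population where it was high, the counts that follow describe the 26 and support nothing further about the family. One limma model was fitted over the 50 arrays and 12883 genes, and a gene was called at a Benjamini-Hochberg adjusted p under 0.05. In these bulk samples, fewer cells of a type and less RNA per cell cannot be told apart. Since all 50 arrays measured polysomal RNA, less of a message and a smaller share of it on polysomes cannot be told apart either.

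The whole table showed features that touch these results. Of the 50 arrays, 46 lay nearest to the mean of their own population over the tested genes. Those labelled mp53 replicate 8 and YAMC replicate 2 lay nearest to the YAMC and mp53 means, while those labelled mp53 replicate 10 and Ras replicate 10 lay nearest to the Ras and mp53 means. Among Y-linked transcripts, Eif2s3y, Kdm5d and Uty averaged 3.73, 3.63 and 3.58 in bleo/Neo cells and at least 5.57 in each other population. Among epithelial markers, Krt8 averaged 12.94 in mp53/Ras, 12.36 in mp53, 12.84 in Ras, 12.26 in bleo/Neo and 11.75 in YAMC cells, while Cdh1 was not above the filter and reached at most 4.31. Of 6 epithelial markers 5 were tested, and not all moved as Krt8 did. Against YAMC cells 2 rose and none fell in mp53/Ras, and 2 rose and 1 fell in mp53 cells. In Ras cells 3 rose and none fell, and in bleo/Neo cells 3 rose and 1 fell. Over all genes 57.8%, 22.9%, 42.7% and 37.4% were called in that order. Of 7 markers of differentiated or stem-like colon epithelium, 1 (Muc2) was tested, so the colon label was not seen in most of its defining transcripts.

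Falls in collagen message were most numerous in the cells with both oncogenes. In mp53/Ras cells against YAMC cells, 2 of the 26 collagen genes rose and 18 fell. Of all 12883 genes, 57.8% were called in that comparison, 29.1% higher and 28.7% lower. The median difference was -0.36 over the collagen genes and 0.02 over all tested genes. Fibril-forming collagens made up much of the count, with 7 of 8 tested lower and none higher (8 lower and 0 higher in limma at an unadjusted p under 0.05), followed by 3 of 4 beaded-filament genes, both network genes and 5 of 7 fibril-associated genes. The arrays of mp53/Ras and YAMC cells did not overlap for 8 collagen genes, all of them lower except Col7a1, and for 16.1% of all tested genes.

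Fewer collagen genes differed with activated Ras alone. In Ras cells against YAMC cells, 5 collagen genes rose and 9 fell, where 42.7% of all genes were called, 21.5% higher and 21.2% lower. Of the fibril-forming genes, 6 of 8 fell. With mutant p53 alone the count depended on the cells it was set against. In mp53 cells against YAMC cells none rose and 5 fell in limma (2 and 6 at an unadjusted p under 0.05), where 22.9% of all genes were called, 11.1% higher and 11.8% lower, a share of called genes near that of the collagens. No collagen gene of mp53 cells changed by at least 2-fold against YAMC cells (0.8% of all genes), and the arrays overlapped for all 26 (0.241% of all genes did not overlap).

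Collagens also differed between the vector control and the uninfected cells. The Y-linked transcripts Eif2s3y, Kdm5d and Uty were low in bleo/Neo cells only. An effect of the empty vectors and another difference of the bleo/Neo population cannot be told apart here. In bleo/Neo cells against YAMC cells, 5 rose and 8 fell, and Col1a2 and Col8a1 were the 2 that changed by at least 2-fold. Over all genes 37.4% were called, 20% higher and 17.4% lower, and 2.77% changed by at least 2-fold. Set against bleo/Neo cells, 9 collagen genes rose and 7 fell in mp53 cells, where 35.4% of all genes were called, 16.5% higher and 18.9% lower. In Ras cells 6 rose and 7 fell, where 41.1% were called, 19.7% higher and 21.4% lower. In mp53/Ras cells 4 rose and 12 fell, where 54.6% were called, 26.7% higher and 27.9% lower. These 3 comparisons share the bleo/Neo arrays. The root mean square distance between bleo/Neo and YAMC means was 1.32 over the 26 collagen genes and 0.429 over all tested genes. Col1a2 and Col8a1 carried that value, since the other 24 collagen genes gave 0.357. The distance between mp53 and YAMC means was 0.254 over the collagen genes and 0.269 over all tested genes.

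**Figure D1:**
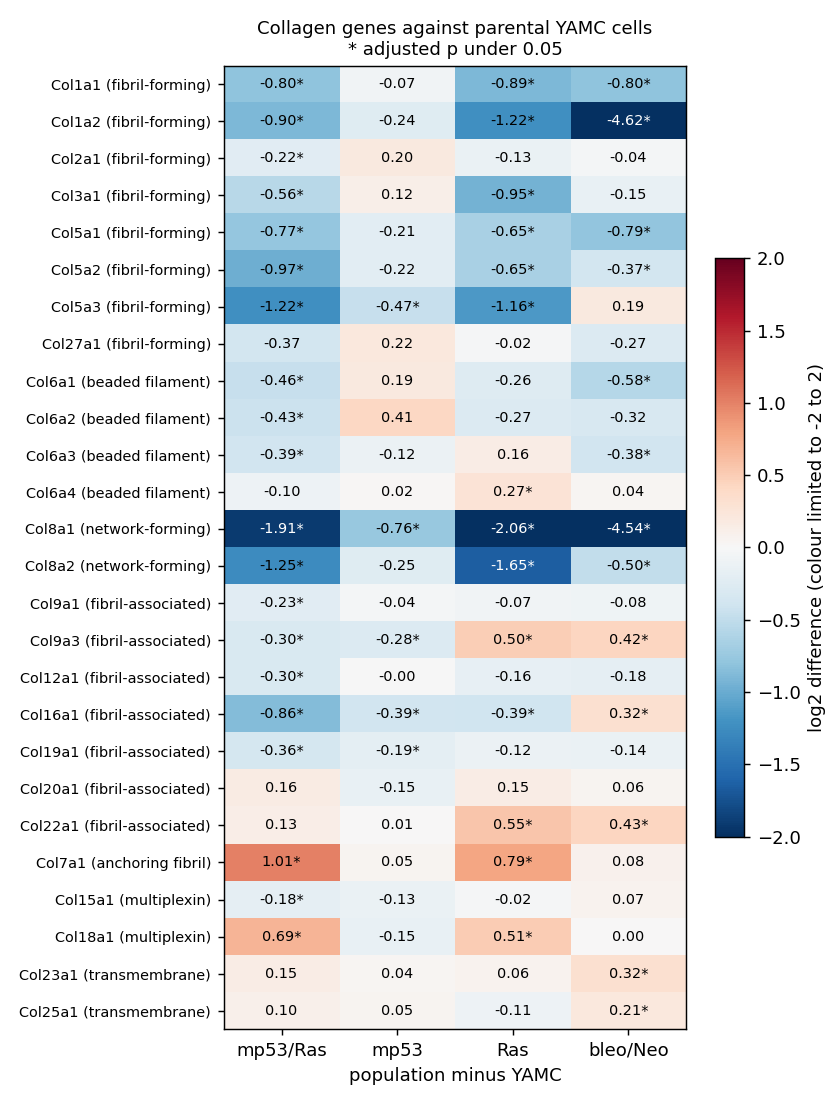
Colours give the log2 difference from YAMC cells of the 26 tested collagen genes (rows) in mp53/Ras, mp53, Ras and bleo/Neo cells (columns), and stars mark adjusted p under 0.05 in limma. Values are printed in each square because colours saturate at the ends of the scale. Col1a2 and Col8a1 in bleo/Neo, at -4.62 and -4.54, are the lowest values, and the mp53/Ras column holds 18 starred falls and 2 starred rises.

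Type I collagen, the main protein of fibrils in most connective tissue, is made of chains from Col1a1 and Col1a2. The lowest, median and highest Col1a2 levels were 12.19, 12.36 and 12.66 in mp53/Ras cells, 11.87, 13.08 and 13.61 in mp53 cells, 11.61, 12.01 and 13.0 in Ras cells, 8.27, 8.59 and 9.29 in bleo/Neo cells, and 12.93, 13.28 and 13.74 in YAMC cells. Every bleo/Neo array lay below every array of the other populations. The difference between bleo/Neo and YAMC cells was -4.62 ± 0.14 (log2, SE), a 24.6-fold lower level (limma, Benjamini-Hochberg adjusted p = 1.72e-31, n = 10 each). A dimmer probe set of Col1a2 gave -5.30 for the same comparison. Against YAMC cells Col1a2 also fell by 1.22 in Ras cells (adjusted p = 1.37e-09) and by 0.90 in mp53/Ras cells (adjusted p = 6.46e-07), where no arrays overlapped, while the difference of -0.24 in mp53 cells did not pass (adjusted p = 0.226). Against bleo/Neo cells it rose by 3.72 in mp53/Ras, 4.37 in mp53 and 3.40 in Ras cells.

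Col1a1, which supplies most chains of the same molecule, spanned a narrower range. Its lowest, median and highest levels were 11.69, 12.52 and 12.97 in mp53/Ras cells, 12.15, 13.30 and 13.93 in mp53 cells, 11.12, 12.35 and 13.22 in Ras cells, 11.65, 12.30 and 13.36 in bleo/Neo cells, and 12.83, 13.21 and 13.81 in YAMC cells. All 5 ranges overlapped. Col1a1 fell against YAMC cells by 0.80 ± 0.20 (SE) in mp53/Ras cells, by 0.89 in Ras cells and by 0.80 in bleo/Neo cells (adjusted p = 0.000617, 0.000311 and 0.00121 in limma). This probe set reached 13.93 on a table whose highest value was 14.26. A dimmer one gave -1.26 for bleo/Neo against YAMC cells and 0.52 for Ras against bleo/Neo cells, where the chosen one gave -0.09. The change of Col1a2 minus that of Col1a1, taken within each array, was -3.82 in bleo/Neo against YAMC cells. A two-sided permutation test with 100000 resamples gave p = 2e-05, the smallest it can give, and 0.00016 after Benjamini-Hochberg adjustment over 16 such tests. The same difference of changes was -0.09 in mp53/Ras, -0.18 in mp53 and -0.33 in Ras cells against YAMC cells (adjusted p = 0.629, 0.102 and 0.0962), so unequal change of the type I chains was measured in bleo/Neo cells and did not pass in the others.

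**Figure D2:**
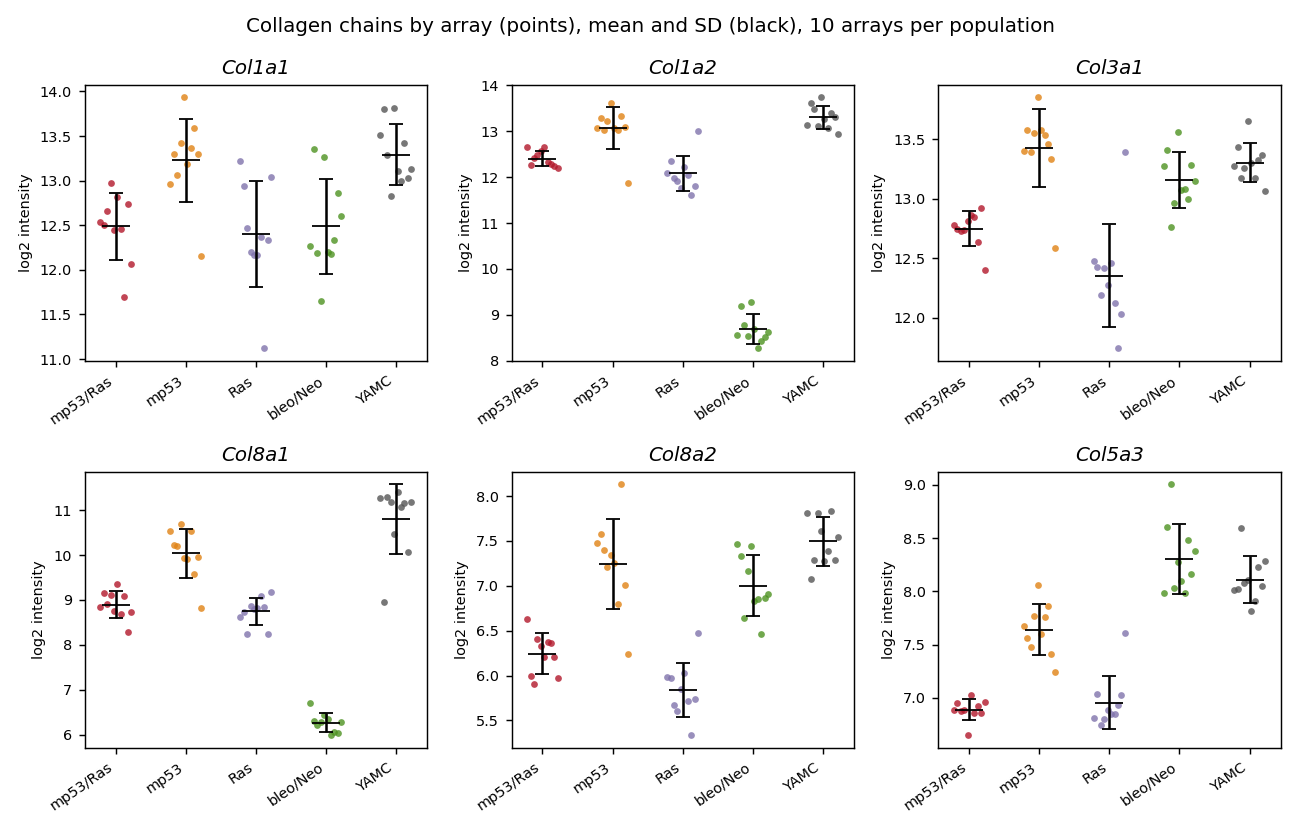
Points are log2 intensities of single arrays for Col1a1, Col1a2, Col3a1, Col8a1, Col8a2 and Col5a3 in the 5 populations, with bars for the mean and SD over 10 arrays. The bleo/Neo points lie apart from all others for Col1a2 (8.27 to 9.29) and Col8a1 (5.99 to 6.71) and inside or near the other ranges for their partner chains Col1a1 and Col8a2.

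Type VIII collagen forms the hexagonal lattice beneath some endothelia and is made by smooth muscle and other cells under remodelling, from Col8a1 and Col8a2. Col8a1 had lowest, median and highest levels of 8.30, 8.88 and 9.34 in mp53/Ras cells, 8.82, 10.07 and 10.70 in mp53 cells, 8.23, 8.82 and 9.17 in Ras cells, 5.99, 6.28 and 6.71 in bleo/Neo cells, and 8.95, 11.17 and 11.39 in YAMC cells. The bleo/Neo arrays again stood below all the others, around the median of the table. The difference between bleo/Neo and YAMC cells was -4.54 ± 0.20 (SE), a 23.2-fold lower level (adjusted p = 9.77e-25 in limma). A further bright probe set gave -6.14 and averaged 3.77 in bleo/Neo cells, near the lowest value of the table (3.04), so how far the polysomal message fell is limited by the array's floor. A dimmer probe set, which did not meet the filter, gave -0.65. Differences from YAMC cells were also called in the other populations, at -1.91 in mp53/Ras, -0.76 in mp53 and -2.06 in Ras cells (adjusted p = 3.04e-11, 0.00452 and 1.18e-11).

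Its partner Col8a2 was lowest in the populations with RasV12. The levels of Col8a2 ran from 5.91 over 6.27 to 6.63 in mp53/Ras cells, from 6.24 over 7.30 to 8.13 in mp53 cells, from 5.34 over 5.80 to 6.47 in Ras cells, from 6.46 over 6.89 to 7.47 in bleo/Neo cells, and from 7.07 over 7.47 to 7.83 in YAMC cells (lowest, median, highest). Neither the mp53/Ras nor the Ras arrays overlapped the YAMC arrays. Col8a2 fell by 1.25 ± 0.15 (SE) in mp53/Ras, 1.65 in Ras and 0.50 in bleo/Neo cells against YAMC cells (adjusted p = 4.31e-10, 5.42e-13 and 0.00619 in limma). The change of Col8a1 minus that of Col8a2 was -4.04 in bleo/Neo against YAMC cells (permutation p = 2e-05, adjusted 0.00016) and -0.66 in mp53/Ras against YAMC cells (adjusted p = 0.0379). It was -0.51 in mp53 and -0.41 in Ras cells against YAMC cells, which did not pass (adjusted p = 0.156 and 0.163).

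Type III collagen forms fibrils together with type I in distensible tissue such as gut and vessel walls, and its single gene is Col3a1. Col3a1 had lowest, median and highest levels of 12.40, 12.76 and 12.92 in mp53/Ras cells, 12.58, 13.50 and 13.85 in mp53 cells, 11.74, 12.35 and 13.39 in Ras cells, 12.76, 13.11 and 13.56 in bleo/Neo cells, and 13.07, 13.28 and 13.65 in YAMC cells. The mp53/Ras arrays lay wholly below the YAMC arrays. It fell by 0.56 ± 0.12 (SE) in mp53/Ras and by 0.95 in Ras cells against YAMC cells (adjusted p = 0.000112 and 9.61e-09 in limma), while bleo/Neo cells differed from YAMC cells by -0.15, which did not pass (adjusted p = 0.355).

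Type V collagen is a minor component buried inside type I fibrils that limits their width, and its genes are Col5a1, Col5a2 and Col5a3. Col5a3 had lowest, median and highest levels of 6.65, 6.89 and 7.02 in mp53/Ras cells, 7.24, 7.64 and 8.06 in mp53 cells, 6.74, 6.87 and 7.61 in Ras cells, 7.99, 8.22 and 9.0 in bleo/Neo cells, and 7.82, 8.06 and 8.60 in YAMC cells. Both populations with RasV12 lay wholly below YAMC and bleo/Neo cells. Against YAMC cells Col5a3 fell by 1.22 ± 0.10 (SE) in mp53/Ras, 0.47 in mp53 and 1.16 in Ras cells (adjusted p = 3.47e-14, 0.000675 and 7.54e-13 in limma), and bleo/Neo cells differed by 0.19 (adjusted p = 0.147). A dimmer probe set, which averaged 5.42 and did not meet the filter, did not show these falls. It gave 0.13 in mp53/Ras, 0.01 in mp53 and 0.10 in Ras cells against YAMC cells.

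Col5a2 had lowest, median and highest levels of 12.19, 12.79 and 13.02 in mp53/Ras cells, 13.33, 13.51 and 13.74 in mp53 cells, 12.71, 13.11 and 13.72 in Ras cells, 12.95, 13.34 and 13.76 in bleo/Neo cells, and 13.63, 13.71 and 13.92 in YAMC cells. The mp53/Ras arrays lay below all arrays of mp53 and of YAMC cells. The fall in mp53/Ras against YAMC cells was 0.97 ± 0.10 (SE; adjusted p = 7.28e-12 in limma) by this probe set, which gave up to 13.92 on a table whose highest value was 14.26. A dimmer probe set of the gene gave -2.34.

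Col5a1 had lowest, median and highest levels of 9.66, 9.94 and 10.15 in mp53/Ras cells, 10.05, 10.38 and 11.53 in mp53 cells, 9.60, 9.90 and 10.90 in Ras cells, 9.29, 9.65 and 10.63 in bleo/Neo cells, and 10.15, 10.60 and 11.61 in YAMC cells. Its highest mp53/Ras array lay just under its lowest YAMC array. Col5a1 fell by 0.77 ± 0.18 in mp53/Ras, 0.65 in Ras and 0.79 in bleo/Neo cells against YAMC cells (adjusted p = 0.000221, 0.00243 and 0.000292 in limma). Dimmer probe sets of Col5a1 gave -0.32 and -0.90 for mp53/Ras against YAMC cells. For mp53/Ras against mp53 cells they gave -0.08 and -0.60, where the chosen one gave -0.56. The change of Col5a2 minus that of Col5a1 was -0.20 in mp53/Ras, -0.01 in mp53 and -0.0028 in Ras cells against YAMC cells (permutation test, adjusted p = 0.239, 0.986 and 0.986), and 0.42 in bleo/Neo cells (adjusted p = 0.0219). These differences used the Col5a2 probe set near the top of the table, which fell by 0.37 in bleo/Neo cells. The dimmer Col5a2 probe set gave -2.34 in mp53/Ras, -0.84 in mp53, -1.93 in Ras and -1.18 in bleo/Neo cells against YAMC cells. Equal or unequal change of these chains therefore depends on the probe set. The other fibril-forming genes tested, Col2a1 and Col27a1, moved by at most 0.43 and 0.59 between any pair of population means.

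Type VI collagen forms beaded filaments that link cells to fibrils. Its Col6a1 and Col6a2 chains had their highest means in mp53 cells. Col6a2 had lowest, median and highest levels of 9.44, 9.96 and 10.20 in mp53/Ras cells, 10.46, 10.71 and 11.32 in mp53 cells, 9.48, 10.0 and 10.88 in Ras cells, 9.40, 9.92 and 11.01 in bleo/Neo cells, and 9.93, 10.35 and 10.79 in YAMC cells. Every mp53/Ras array was below every mp53 array. Col6a2 in mp53/Ras cells differed from mp53 cells by -0.84 ± 0.16 (SE; adjusted p = 2.02e-05 in limma). Col6a1 had lowest, median and highest levels of 10.18, 10.51 and 10.68 in mp53/Ras cells, 10.72, 11.07 and 11.75 in mp53 cells, 10.11, 10.60 and 11.12 in Ras cells, 9.90, 10.17 and 11.15 in bleo/Neo cells, and 10.62, 10.92 and 11.34 in YAMC cells. It too had no overlap between mp53/Ras and mp53 arrays, and it fell by 0.65 ± 0.14 (SE; adjusted p = 0.000108). Against bleo/Neo cells, mp53 cells had Col6a1 higher by 0.76 and Col6a2 higher by 0.73 (adjusted p = 1.19e-05 and 0.000216), while against YAMC cells the differences of 0.19 and 0.41 did not pass (adjusted p = 0.343 and 0.0529). The change of Col6a2 minus that of Col6a1, against YAMC cells, was 0.04 in mp53/Ras, 0.22 in mp53, -0.01 in Ras and 0.26 in bleo/Neo cells (permutation test, adjusted p = 0.842, 0.000853, 0.986 and 0.011). Col6a3, the gene of the longest of the main chains, differed by 0.54 in Ras against bleo/Neo cells and by -0.54 in mp53/Ras against Ras cells (adjusted p = 5.48e-06 and 1.44e-05 in limma). Against YAMC cells it fell by 0.39 in mp53/Ras and 0.38 in bleo/Neo cells (adjusted p = 0.000435 and 0.00102 in limma). It lay above the table median on only 14 arrays, with population means from 6.03 to 6.57.

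Against YAMC cells, Col7a1 had the largest rise among the 26 tested collagen genes. Its product forms anchoring fibrils and is made by epithelial cells and fibroblasts. Col7a1 had lowest, median and highest levels of 8.0, 8.26 and 8.47 in mp53/Ras cells, 7.14, 7.28 and 7.55 in mp53 cells, 7.76, 8.07 and 8.21 in Ras cells, 7.17, 7.32 and 7.43 in bleo/Neo cells, and 7.07, 7.23 and 7.54 in YAMC cells. All arrays with RasV12 lay above all arrays without it. The rise over YAMC cells was 1.01 ± 0.06 (SE), or 2.01-fold, in mp53/Ras and 0.79 in Ras cells (adjusted p = 7.57e-19 and 1.9e-14 in limma), while mp53 and bleo/Neo cells differed by 0.05 and 0.08 (adjusted p = 0.621 and 0.296).

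Col18a1, the source of the antiangiogenic fragment endostatin, was the other gene higher in both populations with RasV12. Its lowest, median and highest levels were 8.97, 9.40 and 9.63 in mp53/Ras cells, 7.98, 8.44 and 9.83 in mp53 cells, 8.47, 9.25 and 9.72 in Ras cells, 8.12, 8.65 and 9.53 in bleo/Neo cells, and 8.23, 8.60 and 9.60 in YAMC cells. Ranges overlapped in all comparisons. Col18a1 rose by 0.69 ± 0.17 (SE) in mp53/Ras and 0.51 in Ras cells against YAMC cells (adjusted p = 0.000452 and 0.0118 in limma), and by 0.84 in mp53/Ras against mp53 cells (adjusted p = 4.23e-05).

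Of the 5 genes that fell in mp53 cells against YAMC cells, 3 were fibril-associated collagens. Col16a1, a minor collagen of fibrillar and fibrillin-rich matrix, had lowest, median and highest levels of 9.01, 9.19 and 9.39 in mp53/Ras cells, 9.44, 9.64 and 10.05 in mp53 cells, 9.43, 9.68 and 9.86 in Ras cells, 9.73, 10.36 and 11.18 in bleo/Neo cells, and 9.82, 10.01 and 10.69 in YAMC cells. The mp53/Ras arrays lay below the arrays of every other population. Against YAMC cells it fell by 0.86 ± 0.11 (SE) in mp53/Ras, 0.39 in mp53 and 0.39 in Ras cells and rose by 0.32 in bleo/Neo cells (adjusted p = 2.33e-09, 0.00614, 0.00265 and 0.0171 in limma).

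Col9a3, a chain of the type IX collagen known from cartilage, was lower in both populations with p53175H. Its lowest, median and highest levels were 6.92, 7.24 and 7.42 in mp53/Ras cells, 6.93, 7.17 and 7.84 in mp53 cells, 7.66, 8.0 and 8.29 in Ras cells, 7.67, 7.96 and 8.51 in bleo/Neo cells, and 7.19, 7.50 and 7.82 in YAMC cells. No mp53/Ras array reached the Ras or the bleo/Neo range. Col9a3 fell by 0.80 ± 0.10 (SE) in mp53/Ras against Ras cells and by 0.70 in mp53 against bleo/Neo cells (adjusted p = 8.51e-09 and 5.17e-08 in limma). A dimmer probe set gave -2.89 and -1.63 for those comparisons. Its partner genes Col9a1 and Col9a2 gave little to set beside this, since Col9a1 spanned 0.23 between population means and Col9a2 was not tested.

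Col22a1, known from tissue junctions such as that of muscle and tendon, was higher in Ras cells by 0.55 ± 0.08 (SE) and in bleo/Neo cells by 0.43 ± 0.08 (SE) than in YAMC cells, and differed by -0.42 in mp53/Ras against Ras cells with no overlap (adjusted p = 8.87e-08, 1.18e-05 and 4.37e-05 in limma). Its population means lay near the table median, from 6.64 to 7.19. Dimmer probe sets of Col22a1, which did not meet the filter, did not show these differences at that size. They gave 0.12 and 0.02 for Ras and 0.15 and 0.22 for bleo/Neo against YAMC cells. For mp53/Ras against Ras cells they gave 0.04 and 0.21, the other direction. For Col12a1, a fibril surface collagen, the chosen probe set fell by 0.30 in mp53/Ras against YAMC cells (adjusted p = 0.00361) and a dimmer one gave -1.73. The remaining fibril-associated, transmembrane and multiplexin genes tested (Col15a1, Col19a1, Col20a1, Col23a1 and Col25a1) spanned at most 0.36 between population means, and Col6a4 of type VI spanned 0.37.

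**Figure D3:**
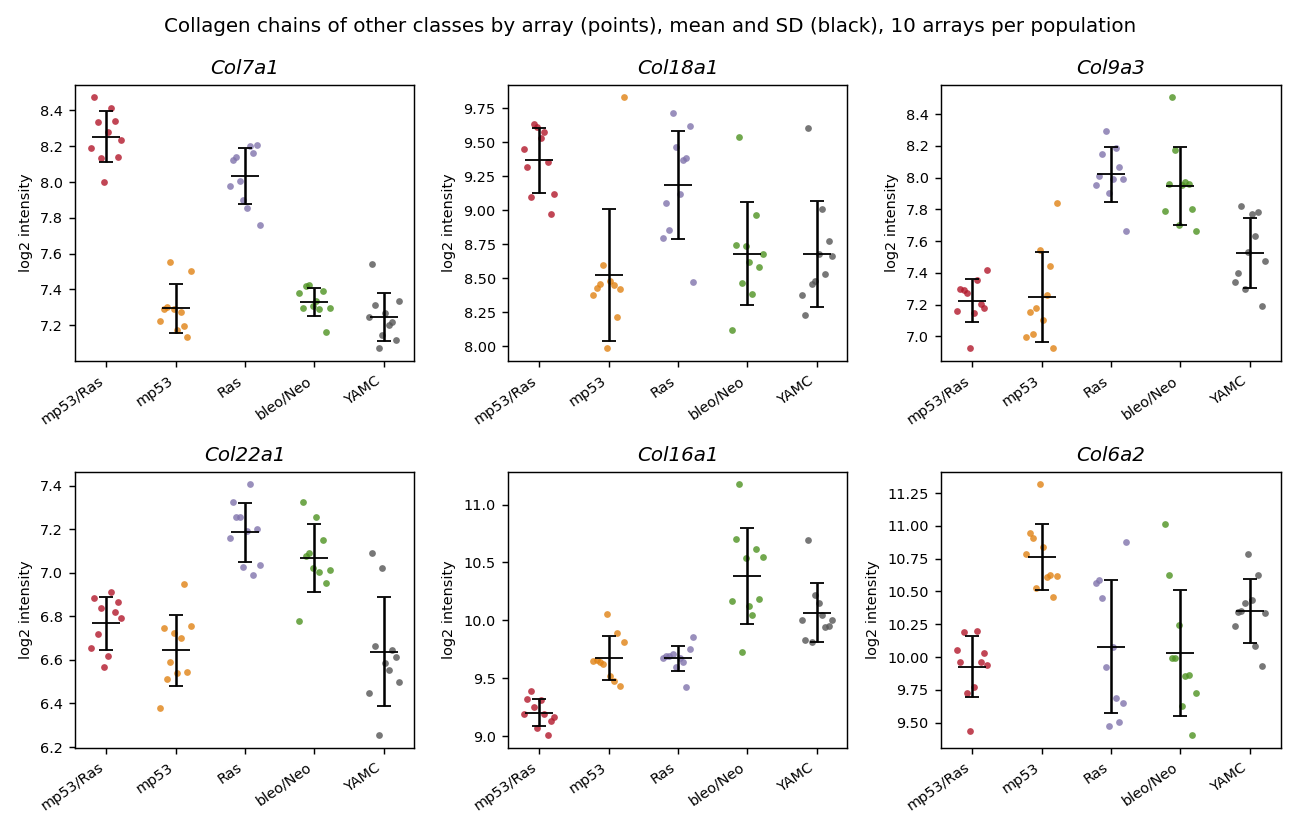
Points are log2 intensities of single arrays for Col7a1, Col18a1, Col9a3, Col22a1, Col16a1 and Col6a2 in the 5 populations, with bars for the mean and SD over 10 arrays. For Col7a1 the mp53/Ras and Ras points, from 7.76 up to 8.47, lie above all others, which reach 7.55 at most, and for Col16a1 the mp53/Ras points, at most 9.39, lie below all others.

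Populations with and without RasV12 can be set side by side in 2 comparisons that share no arrays. Ras against YAMC cells lowered 9 collagen genes and mp53/Ras against mp53 cells lowered 16, and the 9 were all among the 16: Col1a1, Col1a2, Col3a1, Col5a1, Col5a2, Col5a3, Col8a1, Col8a2 and Col16a1. In the second comparison 3 rose, where 47.1% of all genes were called, 23.3% higher and 23.8% lower. The 9 are 34.6% of the tested collagen genes, while 13.7% of all tested genes fell on both backgrounds. Col7a1 and Col18a1 rose on both, which is 7.69% of the collagen genes and compares with 12.5% of all tested genes. No collagen gene was called in opposite directions. For Col5a1, which fell by 0.56 in the second comparison, a dimmer probe set gave -0.08. The backgrounds differ by the Neo and Bleo vectors too, since YAMC cells carry none. Against bleo/Neo cells, which carry the vectors, 5 of the 9 also fell in Ras cells: Col3a1, Col5a2, Col5a3, Col8a2 and Col16a1. Col1a2 rose there by 3.40 and Col8a1 by 2.48, and Col1a1 (-0.09, adjusted p = 0.756 in limma) and Col5a1 (0.15, adjusted p = 0.537) were not called. Col7a1 rose by 0.70 and Col18a1 by 0.50 against bleo/Neo cells as well.

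**Figure D4:**
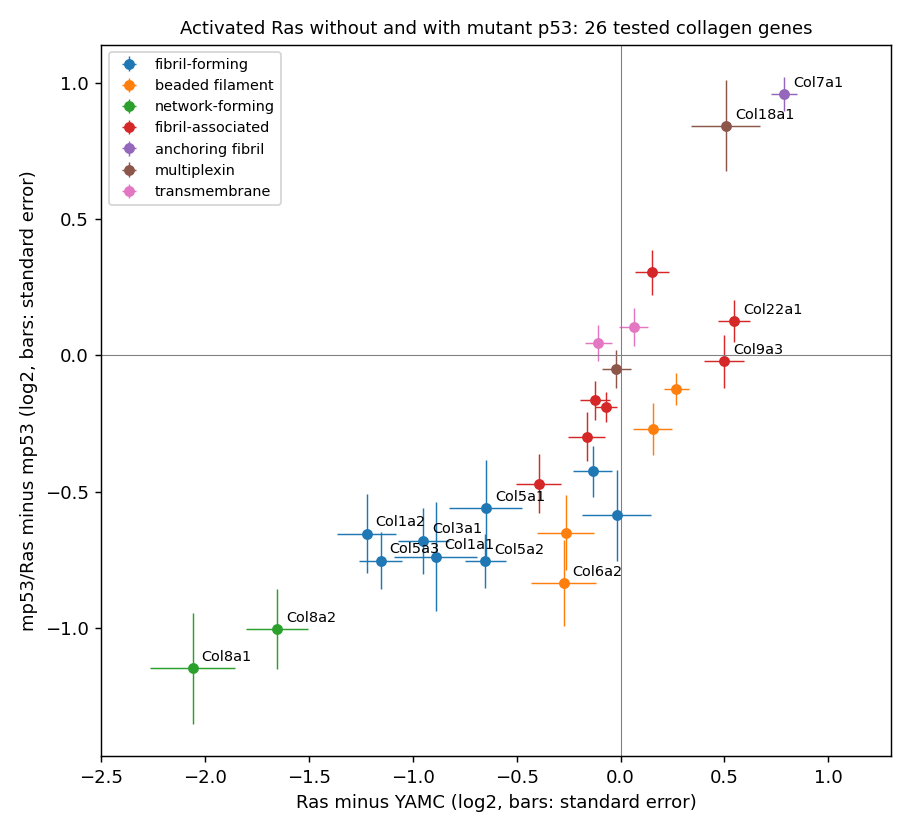
Each point is 1 of the 26 tested collagen genes, with the log2 difference of Ras minus YAMC cells across and of mp53/Ras minus mp53 cells up, and bars for the standard errors. Col8a1, at -2.06 and -1.15, lies at the lower left and Col7a1, at 0.79 and 0.96, at the upper right.

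Populations with and without p53175H were compared in the same way. In mp53/Ras against Ras cells 4 rose and 8 fell, where 21.6% of all genes were called, 9.12% higher and 12.5% lower. Col9a3, Col16a1 and Col19a1 fell both there and in mp53 against YAMC cells, which is 11.5% of the tested collagen genes, against 4.15% of all tested genes, and none rose in both (2.1% of all). They are 3 of the 5 that fell in mp53 cells against YAMC cells and 3 of the 8 that fell in mp53/Ras cells against Ras cells. All 3 are fibril-associated collagens. Dimmer probe sets of Col19a1, which did not meet the filter, gave 0.02 and 0.04 for mp53/Ras against Ras cells. For mp53 against YAMC cells they gave 0.12 and -0.21. The call of Col19a1 in mp53 against YAMC cells (adjusted p = 0.0422 in limma) is lost without the arrays labelled mp53 replicate 10 and Ras replicate 10 (adjusted p = 0.0722), and Col19a1 was not called in mp53 against bleo/Neo cells (adjusted p = 0.561).

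The difference of mp53/Ras cells from what mp53 and Ras cells would add up to, with bleo/Neo cells as the base, was called higher for 4 collagen genes and lower for 9, where 23.9% of all genes were called, 11.8% higher and 12% lower. It was -4.05 ± 0.20 (SE) for Col1a2 and -3.62 ± 0.29 for Col8a1 (adjusted p = 2.85e-22 and 1.26e-14 in limma), which are the genes for which the bleo/Neo base itself was far below YAMC cells. Col6a1, at -0.96 ± 0.19, and Col6a2, at -0.88 ± 0.22, were lower than the sum (adjusted p = 0.000151 and 0.00243), and so was Col5a2, at -0.47 ± 0.14 (adjusted p = 0.00952). For these genes too the bleo/Neo base differed from YAMC cells, by -0.58 for Col6a1 and -0.37 for Col5a2, both called. For Col6a2 the base differed by -0.32, which was not called. A term with YAMC cells as the base was not computed. Col5a3 was higher than the sum by 0.59 ± 0.15 and Col7a1 by 0.26 ± 0.09 (adjusted p = 0.00191 and 0.0268).

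The arrays labelled mp53 replicate 10 and Ras replicate 10 lay at the edge of their populations for several fibrillar genes. Without these 2 arrays, mp53 against bleo/Neo cells gave 12 higher and 7 lower collagen genes (36.6% of all genes called), with Col3a1, Col8a2 and Col12a1 added (differences of 0.37, 0.36 and 0.24). In mp53 against YAMC cells the count became 1 higher, Col6a2 at 0.43, and 4 lower, with Col19a1 lost (adjusted p = 0.0722; 24.5% of all genes called). In mp53/Ras against Ras cells it became 5 higher, with Col1a2 added at 0.43, and 7 lower, with Col9a1 lost (adjusted p = 0.0627; 21.5% of all genes called). Mp53/Ras against mp53 cells had 3 higher and 17 lower, with Col19a1 added (47.8% of all genes called). The counts of mp53/Ras, Ras and bleo/Neo against YAMC cells stayed at 2 and 18, 5 and 9, and 5 and 8, where 58.5%, 45.8% and 38.8% of all genes were called. The sum difference of Col5a1, -0.71 with all arrays (adjusted p = 0.0318), was -0.63 without the 2 arrays and no longer passed (adjusted p = 0.0556).

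Enzymes that fold and modify collagen chains in the endoplasmic reticulum were called at or below the background share in mp53/Ras cells. Of 20 tested (22 listed), 2 rose and 6 fell in mp53/Ras cells against YAMC cells, 2 rose and 11 fell in Ras cells, and 2 rose and 9 fell in bleo/Neo cells, where 57.8%, 42.7% and 37.4% of all genes were called. The list's median difference was -0.12 in mp53/Ras and -0.22 in Ras cells, against 0.02 and 0.01 over all tested genes. Plod2, a lysyl hydroxylase that prepares collagen for crosslinking, fell by 1.20 ± 0.17 (SE) in mp53/Ras and by 0.59 in Ras cells against YAMC cells, and Plod3 fell by 0.70 ± 0.08 and 0.64. P4ha1, a catalytic subunit of the prolyl hydroxylase that stabilises the helix, fell by 1.11 in bleo/Neo and by 0.52 in Ras cells against YAMC cells. Plod1, a further lysyl hydroxylase, fell by 0.51 in Ras and by 0.42 in bleo/Neo cells and differed by 0.09 in mp53/Ras cells, which did not pass (adjusted p = 0.507 in limma).

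Among 8 tested enzymes of propeptide removal and crosslinking (14 listed), 1 rose and 2 fell in mp53/Ras cells against YAMC cells, and 2 rose and 4 fell in Ras cells (medians -0.03 and -0.25). Over all genes 57.8% and 42.7% were called in those comparisons. Lox, the lysyl oxidase that starts crosslinks, fell by 0.87 ± 0.15 (SE) in mp53/Ras and 1.13 in Ras cells. Bmp1, the proteinase that cuts the C-terminal propeptide, fell by 0.66 ± 0.09 and 0.37, while Pcolce2, an enhancer of that cut, rose by 1.36 ± 0.17 and 1.03. Loxl1, a lysyl oxidase that acts on elastic fibres, fell by 0.86 ± 0.13 in Ras cells and differed by -0.11 in mp53/Ras cells (adjusted p = 0.468 in limma).

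For proteins that bind collagen, 3 rose and 5 fell in mp53/Ras cells, none rose and 6 fell in Ras cells, and 1 rose and 6 fell in bleo/Neo cells against YAMC cells, of 10 tested (16 listed). Over all genes 57.8%, 42.7% and 37.4% were called in that order. Their median was -0.24 in mp53/Ras and -0.32 in Ras cells. Bgn, the small proteoglycan biglycan, fell by 4.28 ± 0.10 (SE) in bleo/Neo cells, a drop close in size to those of Col1a2 and Col8a1. Fn1, fibronectin, fell by 1.26 ± 0.17 in mp53/Ras, 0.58 in Ras and 0.76 in bleo/Neo cells. Dcn, decorin, differed by -0.79 ± 0.19 in mp53/Ras and 1.44 in bleo/Neo cells, both called. Matn2, a matrilin of filament networks, rose by 0.72 ± 0.23 in mp53/Ras cells and fell by 2.10 in bleo/Neo cells.

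Collagen receptors and collagenases were counted in the same way. Of 8 tested receptor and uptake genes (11 listed), 1 rose and 4 fell in mp53/Ras and also in Ras cells against YAMC cells. In bleo/Neo cells none rose and 3 fell. Over all genes 57.8%, 42.7% and 37.4% were called in these comparisons, and the same shares apply to the collagenases below. The receptor medians were -0.28 in mp53/Ras and -0.34 in Ras cells. Itga1, the integrin subunit that binds collagen with Itgb1, fell by 2.29 ± 0.27 (SE) in mp53/Ras, 2.34 in Ras and 1.38 in bleo/Neo cells. Itgb1 itself differed by -0.41, -0.53 and -0.53 in that order, all called. The collagen receptor kinase Ddr2 fell by 0.60 ± 0.20, 0.95 and 0.87 in the same order, and Ddr1 fell by 0.85 ± 0.10 in mp53/Ras and 0.57 in Ras cells and differed by 0.05 in bleo/Neo cells (adjusted p = 0.706 in limma). Of 4 tested collagenases and gelatinases (8 listed), 2 rose and 2 fell in mp53/Ras cells and 1 rose and 2 fell in Ras cells (medians -0.12 in both), and none rose and 2 fell in bleo/Neo cells against YAMC cells. Mmp13, which cleaves fibrillar collagen, averaged 6.93 in mp53/Ras, 4.38 in mp53, 7.44 in Ras, 4.32 in bleo/Neo and 3.68 in YAMC cells. It passed the filter through the populations with RasV12, and its YAMC level lay near the lowest value of the table (3.04), so the size of its called rise is not given. Mmp2, a gelatinase, fell by 0.86 ± 0.10 (SE) in mp53/Ras, 0.39 in Ras and 3.19 in bleo/Neo cells. Mmp14, which activates it, fell by 0.42 ± 0.10, 0.46 and 0.43, and Mmp9 rose by 0.19 ± 0.07 in mp53/Ras cells.

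Markers of mesenchymal cells were measured beside the fibrillar collagens. Of 6 smooth muscle markers, 5 were tested, and all 5 fell in mp53/Ras and in Ras cells and 4 fell in bleo/Neo cells against YAMC cells. Over all genes 28.7%, 21.2% and 17.4% were called lower in those comparisons. The summed intensity of the smooth muscle markers ranged from 17420 to 22290 in mp53/Ras, 17670 to 33870 in mp53, 14490 to 27950 in Ras, 13230 to 23280 in bleo/Neo and 27350 to 34800 in YAMC cells. Acta2 averaged 13.52, 13.89, 13.42, 13.13 and 13.97 in that order, and Myh11 was not tested. Of 7 fibroblast markers, Pdgfrb, Dpt and Dcn were tested and Pdgfra, Thy1, Lum and Fap were not, and the summed intensity ranged from 1857 to 2536 in mp53/Ras, 1842 to 7002 in mp53, 1565 to 2823 in Ras, 5082 to 10500 in bleo/Neo and 2146 to 4053 in YAMC cells. Most of this sum was Dcn, which averaged 10.69, 12.04, 10.85, 12.92 and 11.47 on the log2 scale in that order. The fibroblast markers did not move together: against YAMC cells Dpt rose by 1.00 and Dcn fell by 0.79 in mp53/Ras cells, and Dcn rose by 1.44 and Pdgfrb fell by 0.21 in bleo/Neo cells. The part of such cells in the collagen differences was not tested.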

How the data were processed

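Polysomal RNA of 5 cell populations was measured on 50 Affymetrix mouse arrays. The deposited intensities are on a linear scale and were made by the authors with RMA, per the submitters' processing notes, with no version given in the sources used here. RMA brings arrays to a common distribution: array medians ran from 6.43 to 6.44 after log2, so a shift shared by most genes would not be seen. No detection calls were used. Precision is set by how many arrays each population had. Of 45101 probe sets 64 were blank; of the rest, 34945 had 1 symbol, 932 several and 9160 none, and 34741 of the first kind matched the reference gene table. Values were taken as log2 with no offset. The brightest probe set stood for a gene, 12883 of 18193 genes passed the filter, and limma 3.58.1 in R 4.3.3 fitted the 5 population means with an intensity trend in the variance, followed by Benjamini-Hochberg adjustment.

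Collagen genes, gene lists and tests were chosen with earlier results of these data known. The 14 tested collagen genes with the widest range of population means are described in full, then others called in the comparisons. For each list, up to 4 called genes of the widest range were named. Chain partners were compared by permutation of arrays. Alternatives were no filter, a stricter filter, the replicate number as a block, no intensity trend, the mean of all probe sets, centring, an offset of 50, a 2-fold threshold, and fits without 2 or 4 arrays. Markers of endothelium, immune cells and cartilage had 2 of 5, 3 of 5 and 1 of 5 genes tested.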

Additional observations from a re-analysis of the deposited data

Results flagged for a closer look

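For the 14 collagen genes described in full, 70 sets of 10 arrays were examined for a lowest or highest array far from the rest, and 11 were found (by Dixon's ratio of gap to range, where chance gives such an array in about 1 set of 20). The array labelled mp53 replicate 10 was low for Col1a2 (11.87, others 13.02 to 13.61) and Col3a1 (12.58, others 13.33 to 13.85) and high for Col18a1 (9.83, others 7.98 to 8.60). The array labelled Ras replicate 10 was high for Col5a3 (7.61, others 6.74 to 7.04), Col3a1 (13.39, others 11.74 to 12.48) and Col5a2 (13.72, others 12.71 to 13.18). Over all tested genes these 2 arrays lay nearest to each other's population, as did those labelled mp53 replicate 8 and YAMC replicate 2. Single arrays elsewhere were mp53/Ras replicate 5 for Col5a3 (6.65, others 6.85 to 7.02), YAMC replicate 3 for Col16a1 (10.69, others 9.82 to 10.22), bleo/Neo replicate 9 for Col7a1 (7.17, others 7.29 to 7.43), Ras replicate 8 for Col1a1 (11.12, others 12.16 to 13.22) and mp53 replicate 5 for Col5a1 (11.53, others 10.05 to 10.66).

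The limma term for mp53/Ras minus mp53 minus Ras plus bleo/Neo cells was called for 8 of the 14 genes. The 14 were picked for their wide range of means, and 23.9% of all tested genes were called. The term was -4.05 for Col1a2, -3.62 for Col8a1, 0.594 for Col5a3 and 0.256 for Col7a1. It was -0.473 for Col5a2, -0.881 for Col6a2, -0.707 for Col5a1 and -0.962 for Col6a1. For Col1a2 and Col8a1 the bleo/Neo base itself differed from YAMC cells by -4.62 and -4.54. It was also called lower than YAMC cells for Col5a1 (-0.79), Col6a1 (-0.58) and Col5a2 (-0.37). Col1a2 and Col8a1 fell in Ras against YAMC cells and in mp53/Ras against mp53 cells. Whether the term reflects RasV12 itself was not tested. The Col5a1 call is lost without the arrays labelled mp53 replicate 10 and Ras replicate 10 (adjusted p = 0.0556). Dimmer probe sets of Col5a1 gave -0.26 and -0.56 for this term.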

How the results depend on the processing

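Counts of called collagen genes stayed within 1.5 times the reported count under most alternatives. With at least 2-fold required, they became 2 (bleo/Neo against YAMC cells), 2, 4 and 4 (mp53, Ras and mp53/Ras against bleo/Neo cells), 0, 4 and 4 (mp53, Ras and mp53/Ras against YAMC cells), 2 (mp53/Ras against mp53 cells), 0 (mp53/Ras against Ras cells, with 12 called without the fold) and 2 (the sum difference), by construction. With the mean of all probe sets, 19 collagen genes were tested and 9 were called for mp53/Ras against bleo/Neo cells (4 higher, 5 lower) and 6 for mp53/Ras against Ras cells (3 and 3, against 4 and 8 as reported). Without the 4 arrays nearest to another population, mp53 against YAMC cells gave 8 calls, 3 higher and 5 lower, where 0 were higher with all arrays, and 33.7% of all genes were called. No lean to higher or lower turned to the other side, but Ras against bleo/Neo cells became even (7 and 7) with the block and with centring, and some counts at 2-fold were even. With no filter, all 36 collagen genes gave 23 calls for mp53/Ras against YAMC cells, 21 of them lower.

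No label says that a replicate number marks shared material, and the arrays were not treated as paired. Deviations of same-numbered arrays correlated from -0.375 to 0.747, and in no comparison were all 10 pairs above 0.1. The numbers still carried shared variation: the median same-number correlation was 0.0919 to 0.388 over the comparisons, against -0.058 to -0.00644 for other numbers. With the replicate number as a block, the collagen counts were 13, 17, 14, 16, 6, 14, 21, 20, 13 and 16 in the same order, and in 2 to 6 of 10 cases an array correlated best with its own number. The block raised the calls over all genes, for example to 5388 (4813 without it) for bleo/Neo against YAMC cells and 3542 (2952) for mp53 against YAMC cells.

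Of 94 called differences of the 14 genes, 836 of 839 values under the alternatives kept direction and call, and none reversed. The 3 others were Col8a2 in mp53/Ras against Ras cells with an offset of 50 (0.22, adjusted p = 0.116), Col3a1 in mp53/Ras against bleo/Neo cells with the mean of probe sets (-0.31, adjusted p = 0.110) and Col5a1 as described. Over all genes, dropping the filter raised the calls to 4711 (2952 with it) for mp53 against YAMC cells, 4576 (2779) for mp53/Ras against Ras cells and 5038 (3073) for the sum difference, with 18193 genes tested. Signal near the floor limits the size of falls in bleo/Neo cells, and probe sets near the top of the range gave smaller falls than dimmer ones for Col5a2.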
